A study of Mus musculus with 29 samples.

Results

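The genes described here are 37 regulators and targets of the tumour suppressor p53, listed by symbol and looked up among the 56748 genes counted in mouse aortic arch. All 37 symbols were found, and 33 of the genes had enough counts to be tested. Gtse1, Ckap2, Pmaip1 and Pidd1 did not pass the filter on low counts and are given by their values and by an alternative fit without the filter.

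RNA from the aortic arch was sequenced with 1 library per mouse, in F1 hybrids of C57BL6J and FVB of both sexes. Ercc1Δ/- mice, which carry 1 loss-of-function allele and 1 hypomorphic allele giving a truncated protein in every tissue, were compared with WT littermates. The groups were WT and Ercc1Δ/- at 6 weeks fed ad libitum (AL, 5 and 5 mice), WT and Ercc1Δ/- at 22 weeks on AL (4 and 4), and WT and Ercc1Δ/- at 22 weeks on 30% dietary restriction (DR, 5 and 5). Another WT mouse of 22 weeks on AL, sample 003, was left out, with a library of 400410 counts. The remaining 28 samples held 921167 to 9616382 deduplicated counts on genes, and the 22-week Ercc1Δ/- groups were shallower (medians of 2392576 on AL and 1576566 on DR) than the WT groups of that age (6212607 and 5557760). Ercc1 itself had normalized counts of 28.2 to 78.7 in the 14 Ercc1Δ/- samples and 52.2 to 136 in the 14 WT samples, and 6 Ercc1Δ/- samples lay below every WT sample. Within each age and diet the genotypes were separate for Ercc1, except that WT mouse 011 of 6 weeks lay below Ercc1Δ/- mouse 027. Sex labels matched sex-linked transcripts in 29 of 29 samples. Smooth muscle and fibroblast markers, which define the media and adventitia, were detected in every group, with summed normalized counts of 66851 to 169057 and 19947 to 103547.

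p53, encoded by Trp53, is a transcription factor that is held at low levels by the ubiquitin ligase MDM2 and its partner MDM4, and is stabilised when DNA is damaged. It then binds to paired half-sites in its target genes, whose products halt the cell cycle, trigger apoptosis, alter metabolism or feed back on p53 itself. ERCC1 is the partner of the nuclease XPF in nucleotide excision repair and in the repair of interstrand crosslinks, so that cells without enough of it keep DNA lesions that block transcription and replication, a classical trigger of p53. In the arterial wall, p53 and its target p21 are known for arresting smooth muscle cells.

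Of the 4 members with differences in every genotype comparison, only Cdkn1a had a paired p53 site in the RefSeq windows that were searched. Promoters were taken from RefSeq as windows of 250 bases before each start and placed in GRCm39, the build of the counts, by exact match. The window before the upstream start of Cdkn1a is shown because it carries this site, from 29309703 up to the first base of the annotated transcript (chr17:29309703-29309935, + strand, GRCm39). Capitals mark matches to the p53 half-site consensus, or half-sites that form a pair with one.
Cdkn1a: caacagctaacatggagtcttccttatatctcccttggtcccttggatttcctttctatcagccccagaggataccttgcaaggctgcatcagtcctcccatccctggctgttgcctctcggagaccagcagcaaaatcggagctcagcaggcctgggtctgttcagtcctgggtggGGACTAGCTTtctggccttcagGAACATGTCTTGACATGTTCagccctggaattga
The window also overlaps an exon of Gm64878, a noncoding RNA on the other strand. Paired sites, defined as 2 half-sites of 10 bases with cores intact, at most 2 mismatches in all and at most 13 bases between them, were also found before starts of Rps27l, Ckap2, Bax and Sesn1. For Rps27l and Sesn1 that start was a downstream one, so the pairs lay inside the annotated gene. The pair of Sesn1 lay wholly in annotated untranslated exon. For each of the 5 members the pair with the shortest spacer is printed 5′ to 3′ on the strand of the gene, to show how alike the sites of changed and unchanged members were.
Cdkn1a (chr17:29309902-29309921, + strand, 1 mismatch): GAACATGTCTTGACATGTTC
Rps27l (chr9:66853578-66853597, + strand, 1 mismatch): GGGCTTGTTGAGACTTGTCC
Ckap2 (chr8:22676019-22676038, - strand, 2 mismatches): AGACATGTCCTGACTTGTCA
Bax (chr7:45116503-45116523, - strand, 2 mismatches): AGGCAAGCTTtGAACTTGCGG
Sesn1 (chr10:41763249-41763271, + strand, 2 mismatches): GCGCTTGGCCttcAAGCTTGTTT
RefSeq held 43 windows for 31 members. A half-site without mismatch lay in 14 of these windows (32.6%) and in 7.13% of all 32851 windows, and a pair lay in 5 (11.6%) against 1.75% of all windows. The half-site occurred before 6 of 14 members called in a genotype comparison and before 7 of 14 tested members that were not, among them Trp53, Mdm2 and Bax. Windows of Psrc1, Eda2r and Plk2 held no match, which says only that these letters are not in those 250 bases. All 250 bases of the Plk2 window, and 198 and 218 of those of Psrc1, were annotated as untranslated exon. Bases before the outermost annotated starts of Plk2 and Psrc1 were not searched.

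The question of the genotype comparisons is which genes differ in the aorta when DNA repair is impaired. Higher levels in Ercc1Δ/- mice were found for the p53 targets that act on the cell cycle (Cdkn1a, Psrc1, Plk2), for the receptor gene Eda2r and for the secreted factor Gdf15, already at 6 weeks, and for a larger set at 22 weeks. Trp53, Mdm2 and Mdm4, the core of the pathway, passed no test. Log2 fold changes are given ± SE from edgeR's quasi-likelihood test with Benjamini-Hochberg adjustment, and levels as normalized counts, listed within a group by mouse number. A gene was called when its adjusted p was at most 0.05 and its change at least 1.2-fold. At 6 weeks 5 of the 33 tested members were called higher and none lower, while 0.567% of all 12353 genes were called higher and 1.13% lower. An unadjusted p under 0.05 was found there for 10 of the 33 members and 12.8% of all genes. At 22 weeks on AL 13 were higher and 1 lower, against 5.88% and 6.16% of all genes. On DR at 22 weeks 11 were higher and 1 lower, against 5.97% and 7.03%. The median log2 fold change of the members was 0.18 at 6 weeks, 0.47 at 22 weeks on AL and 0.34 on DR, while that of all tested genes was 0.02, 0.03 and 0.00. In 27, 29 and 24 of the 33 members the fold change was above 0, as it was in 54.7%, 53.8% and 50.6% of all genes. The members were chosen with earlier results of these data known, so these contrasts with all genes describe the list and do not test it. Cdkn1a, Psrc1, Eda2r and Plk2 were called in each of the 3 comparisons, 5 members in 2, 9 in 1 and 15 in none. The 3 genotype comparisons are of different mice, while the same mice enter the comparisons of age and diet, whose values are therefore given side by side.

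**Figure D1:**
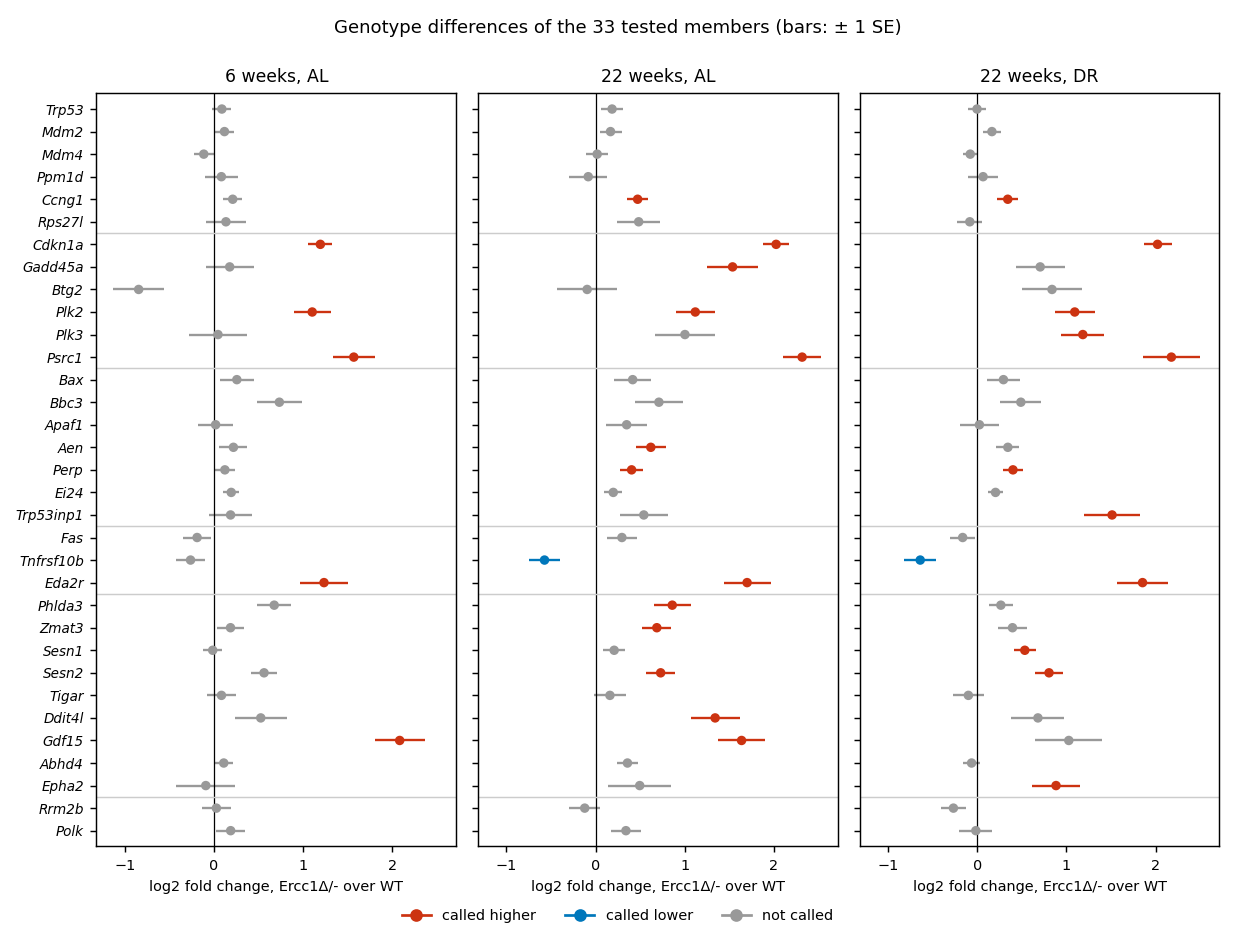
Log2 fold change of Ercc1Δ/- over WT for the 33 tested members (points, with bars of ± 1 SE), ordered by role, in the 3 genotype comparisons. Red points are called higher (5, 13 and 11 members), blue points lower (Tnfrsf10b at 22 weeks on both diets) and grey points not called.

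Of Trp53 and its feedback regulators, 6 tested genes, none was called at 6 weeks and 1 at 22 weeks on each diet. Trp53 had normalized counts of 129 to 187 in WT and 134 to 234 in Ercc1Δ/- mice, with log2 fold changes of 0.09 ± 0.11 at 6 weeks, 0.18 ± 0.12 at 22 weeks on AL and -0.00 ± 0.10 on DR. Mdm2, whose product degrades p53 and which is itself a classical target, had 197 to 283 in WT and 214 to 316 in Ercc1Δ/- mice, with differences of 0.12 ± 0.11, 0.17 ± 0.12 and 0.16 ± 0.10. With these SEs, the 95% interval at 22 weeks on AL reached from -0.09 to 0.42. Mdm4, an inhibitor of p53, Ppm1d, a phosphatase that switches the response off, and Rps27l, a ribosomal protein paralogue that is a p53 target, were not called in any comparison either.

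Ccng1, which encodes cyclin G1, a target that feeds back on p53 through a phosphatase, was the 1 feedback gene called at 22 weeks. Ccng1 in WT mice had normalized counts of 309, 278, 289, 339.7 and 284 at 6 weeks, 332, 276, 263 and 305 at 22 weeks on AL and 303, 242, 318, 284 and 296 on DR. Ccng1 in Ercc1Δ/- mice stood at 362, 356, 318, 356 and 325 at 6 weeks, 459, 488, 396 and 304 at 22 weeks on AL and 447, 311, 367, 363 and 341 on DR. The groups overlapped at every age and diet. The log2 fold change was 0.21 ± 0.11 at 6 weeks (adjusted p = 0.43), 0.47 ± 0.12 at 22 weeks on AL (adjusted p = 0.0119) and 0.34 ± 0.12 on DR (adjusted p = 0.0489). The call on AL was lost without mouse 004, 005 or 018 (adjusted p = 0.0514, 0.0635 and 0.0857), and that on DR held only without mouse 014 (adjusted p up to 0.158 in the other 9 omissions of a single mouse).

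Of 6 tested genes of cell cycle arrest and division, 3 were called higher at 6 weeks, 4 at 22 weeks on AL and 4 on DR. Cdkn1a, at chr17:29309936-29319701, encodes p21, the inhibitor of cyclin-dependent kinases through which p53 arrests cells. Cdkn1a in WT mice had normalized counts of 189.6, 160.4, 141, 143 and 195 at 6 weeks, 133, 152, 222 and 163 at 22 weeks on AL and 131, 159.7, 187, 241 and 165 on DR. Cdkn1a in Ercc1Δ/- mice stood at 461, 354, 395, 331 and 397 at 6 weeks, 665, 742, 709 and 567 at 22 weeks on AL and 699, 653, 813, 578 and 814 on DR. Every Ercc1Δ/- sample lay above every WT sample, and the 22-week Ercc1Δ/- samples lay above those of 6 weeks. Cdkn1a was 2.29-fold higher at 6 weeks (log2 fold change 1.19 ± 0.13, adjusted p = 3.55e-05), 4.07-fold at 22 weeks on AL (2.02 ± 0.15, adjusted p = 3.41e-08) and 4.06-fold on DR (2.02 ± 0.16, adjusted p = 1.33e-07). At 22 weeks on AL it had the smallest p of all 12353 genes.

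Psrc1, at chr3:108288765-108295547, encodes a spindle protein that was first described as a p53 target (DDA3) and that promotes mitosis. Psrc1 in WT mice had normalized counts of 12.1, 15.3, 16.1, 8.56 and 7.32 at 6 weeks, 10.7, 11.98, 13.7 and 17.8 at 22 weeks on AL and 8.02, 4.35, 6.51, 7.19 and 7.3 on DR. Psrc1 in Ercc1Δ/- mice stood at 39.01, 29.8, 40.5, 20.3 and 31.3 at 6 weeks, 62.2, 56.7, 75.3 and 67.2 at 22 weeks on AL and 11.8, 51.2, 26.4, 40.9 and 30.5 on DR. On AL the groups did not overlap at either age, and on DR the lowest Ercc1Δ/- sample, 006 with 11.8, still lay above the highest WT sample. The log2 fold changes were 1.57 ± 0.23, adjusted p = 0.00113 at 6 weeks, 2.31 ± 0.22, adjusted p = 4.38e-07 at 22 weeks on AL and 2.18 ± 0.32, adjusted p = 4.77e-05 on DR. Raw counts of this gene were between 3 and 69, so that single libraries are imprecise.

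Plk2, at chr13:110531015-110537379, encodes a polo-like kinase that acts in centriole duplication and under stress. Plk2 in WT mice had normalized counts of 30.2, 25.1, 16.1, 17.1 and 27.6 at 6 weeks, 27.2, 23.5, 36.7 and 31.1 at 22 weeks on AL and 15.4, 17.4, 29.9, 33.6 and 22.5 on DR. Plk2 in Ercc1Δ/- mice stood at 57.5, 59.6, 37.3, 46.1 and 75.1 at 6 weeks, 70.3, 54.6, 69.8 and 52.3 at 22 weeks on AL and 54.1, 43.3, 45.6, 49.1 and 57.2 on DR. WT and Ercc1Δ/- samples were fully separate within each age and diet. The log2 fold changes of Plk2 were 1.1 ± 0.21, adjusted p = 0.00729 at 6 weeks, 1.12 ± 0.22, adjusted p = 0.00154 at 22 weeks on AL and 1.09 ± 0.22, adjusted p = 0.00155 on DR.

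**Figure D2:**
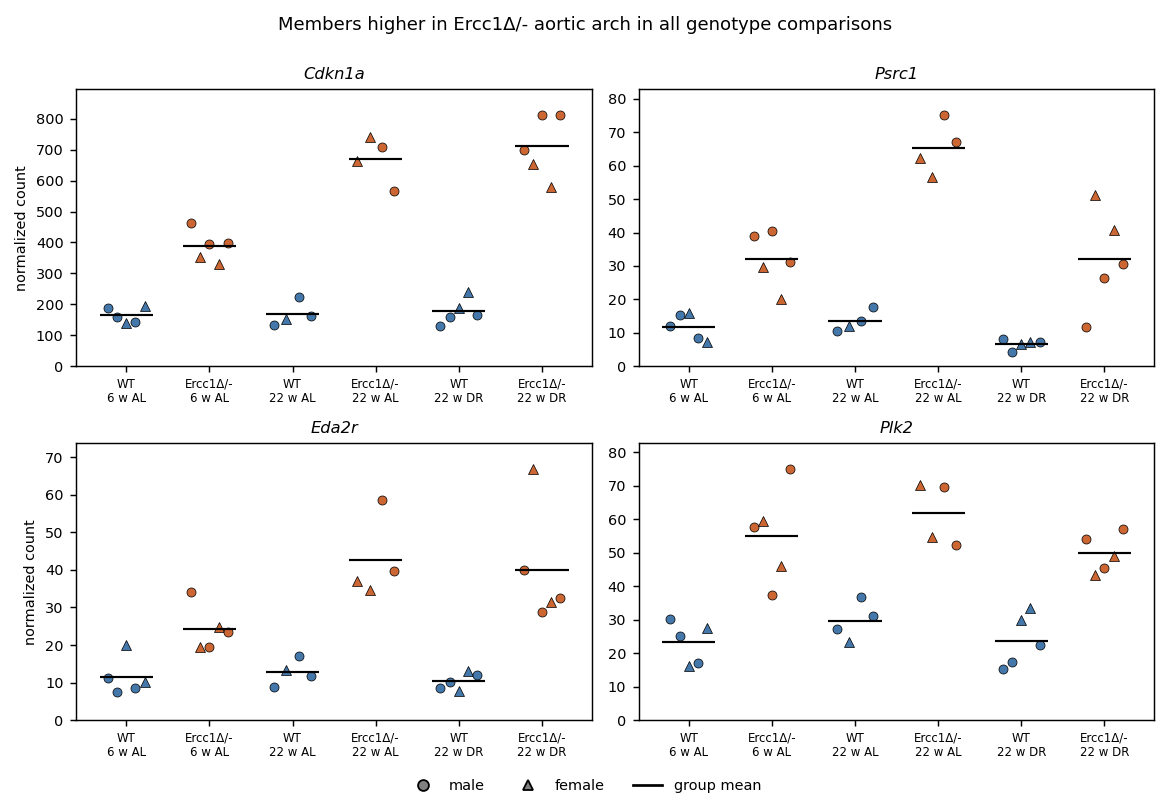
Normalized counts of Cdkn1a, Psrc1, Eda2r and Plk2 in each mouse by group (circles male, triangles female, lines group means, linear axes from 0). WT samples stayed at 131 to 241 for Cdkn1a, while Ercc1Δ/- samples ran from 331 to 814.

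Plk3, a related kinase that responds to stress and growth signals, was called on DR alone. Plk3 in WT mice had normalized counts of 37.005, 60.01, 24.1, 25.7 and 28.05 at 6 weeks, 32.02, 42.8, 38.5 and 27.3 at 22 weeks on AL and 32.1, 40.6, 28.6, 38.4 and 29.2 on DR. Plk3 in Ercc1Δ/- mice stood at 68.3, 31.7, 30.8, 25.9 and 25.03 at 6 weeks, 69.4, 101, 33.5 and 57.2 at 22 weeks on AL and 84.7, 43.3, 93.6, 53.2 and 93.4 on DR. On DR the Ercc1Δ/- samples lay above all WT samples, on AL at 22 weeks the lowest Ercc1Δ/- sample lay among WT, and at 6 weeks only mouse 002 lay above all WT samples. On the log2 scale the difference was 1.18 ± 0.24, adjusted p = 0.00155 on DR and 1.00 ± 0.33, adjusted p = 0.0568 on AL, and a difference between the 2 diets was not shown (0.22 ± 0.35, adjusted p = 0.913 for genotype by diet). On AL the gene was called in 3 alternative fits, without the sex term, with all 6 groups or with the compared groups alone, and also without mouse 013 (adjusted p = 0.0218).

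Gadd45a, whose product links DNA damage to growth arrest and repair, rose at 22 weeks on AL. Gadd45a in WT mice had normalized counts of 20.4, 18.5, 16.1, 19.98 and 34.1 at 6 weeks, 22.3, 17.5, 11.1 and 15.95 at 22 weeks on AL and 12.7, 21.8, 18.2, 16.8 and 17.03 on DR. Gadd45a in Ercc1Δ/- mice stood at 23.4, 23.3, 42.1, 28.1 and 25.03 at 6 weeks, 41.5, 36.8, 47.4 and 79.6 at 22 weeks on AL and 28.2, 19.7, 33.6, 27.3 and 26.7 on DR. On AL at 22 weeks every Ercc1Δ/- sample lay above every WT sample, with mouse 026 highest, and at 6 weeks the groups overlapped. The fitted difference was 1.54 ± 0.29, adjusted p = 0.00105 on AL, and 0.18 ± 0.27 at 6 weeks and 0.71 ± 0.27 on DR (adjusted p = 0.855 and 0.0918).

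Btg2, an antiproliferative gene that is a p53 target and an immediate early gene, was not called in any genotype comparison, with log2 fold changes of -0.84 ± 0.29, -0.09 ± 0.33 and 0.84 ± 0.34. Its counts ran from 474 to 990.4 in WT and from 286 to 660.2 in Ercc1Δ/- mice at 6 weeks. The median log2 fold change of the 17 tested immediate early genes was -0.43 at 6 weeks, -0.34 at 22 weeks on AL and 0.20 on DR. At 6 weeks 1 of the 17 was called lower, Fosb, a subunit of AP-1 (-2.19 ± 0.40, adjusted p = 0.0116), and 1 higher, Plk2. Of all genes 1.13% were lower and 0.567% higher. DESeq2 called Btg2 lower at 6 weeks (adjusted p = 0.0281). The part of the immediate early response in the values of Btg2 was not tested.

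Of 7 tested genes of intracellular apoptosis and autophagy, none was called at 6 weeks and 2 were called higher at 22 weeks on each diet. Bax and Apaf1, which act at the mitochondrion and in the apoptosome, and Bbc3, which encodes PUMA, were not called. The log2 fold changes of Bbc3 were 0.73 ± 0.25, 0.71 ± 0.27 and 0.49 ± 0.23 (adjusted p = 0.167, 0.0865 and 0.177) and those of Bax 0.26 ± 0.19, 0.42 ± 0.21 and 0.29 ± 0.19. Without mouse 026, Bbc3 was called on AL (adjusted p = 0.0216). Ei24, a p53-induced protein of the endoplasmic reticulum, differed by at most 0.21.

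Aen, a nuclease that is induced by p53 in apoptosis, rose at 22 weeks on AL. Aen in WT mice had normalized counts of 77.03, 99.3, 48.2, 82.8 and 122 at 6 weeks, 120.3, 98.6, 123 and 106 at 22 weeks on AL and 90.9, 110.3, 88.5, 101 and 120.4 on DR. Aen in Ercc1Δ/- mice stood at 100.4, 115, 117, 96.8 and 105 at 6 weeks, 168, 143, 201 and 174 at 22 weeks on AL and 118, 118, 137, 150.0 and 114 on DR. All 4 Ercc1Δ/- samples on AL at 22 weeks lay above the WT samples, and the other groups overlapped. Its log2 fold change was 0.62 ± 0.17, adjusted p = 0.0164 on AL and 0.34 ± 0.13 on DR (adjusted p = 0.0776). Without mouse 004, 013 or 018 the adjusted p on AL was 0.0508 to 0.0872.

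Perp, a membrane protein of desmosomes that p53 induces in apoptosis, was called on both diets at 22 weeks. Perp in WT mice had normalized counts of 285, 404, 362, 385 and 339 at 6 weeks, 298, 323, 338 and 381 at 22 weeks on AL and 448, 462, 376, 359.6 and 355 on DR. Perp in Ercc1Δ/- mice stood at 344, 427, 355, 451 and 336 at 6 weeks, 425, 537, 463 and 396 at 22 weeks on AL and 579, 468, 648, 419 and 533 on DR. On AL the samples were separate, with mouse 026 just above the highest WT value, and on DR they overlapped. The log2 fold changes were 0.40 ± 0.12, adjusted p = 0.0361 on AL and 0.40 ± 0.11, adjusted p = 0.0148 on DR. The call on AL was lost in 5 of 8 omissions of a single mouse (005, 012, 013, 018 and 020, adjusted p up to 0.165), and that on DR without mouse 016 (0.0605).

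Trp53inp1, which encodes a nuclear protein that promotes p53 activity and autophagy, was called on DR. Trp53inp1 in WT mice had normalized counts of 273, 216, 329, 414 and 203 at 6 weeks, 136, 197, 299.9 and 186 at 22 weeks on AL and 216, 176, 186, 299.7 and 278 on DR. Trp53inp1 in Ercc1Δ/- mice stood at 324, 425, 308, 300.4 and 209.6 at 6 weeks, 281, 391, 268 and 271 at 22 weeks on AL and 960.1, 350.3, 1063, 352 and 678 on DR. All 5 Ercc1Δ/- samples on DR lay above the WT samples on DR, with mice 006, 016 and 029 well above 014 and 022. The change on the log2 scale was 1.51 ± 0.31, adjusted p = 0.00584 on DR and 0.54 ± 0.27, adjusted p = 0.22 on AL.

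The death receptors moved in different directions. Eda2r, at chrX:96320270-96420847, encodes XEDAR, a receptor of the tumour necrosis factor family that binds ectodysplasin A2. Eda2r in WT mice had normalized counts of 11.3, 7.64, 20.1, 8.56 and 10.2 at 6 weeks, 8.73, 13.4, 17.1 and 11.8 at 22 weeks on AL and 8.69, 10.2, 7.81, 13.2 and 12.2 on DR. Eda2r in Ercc1Δ/- mice stood at 34.1, 19.6, 19.4, 24.8 and 23.5 at 6 weeks, 36.98, 34.7, 58.6 and 39.8 at 22 weeks on AL and 40.003, 66.9, 28.8, 31.4 and 32.4 on DR. At 22 weeks the groups were separate on both diets, and at 6 weeks WT mouse 011, a library of 955589 counts, reached the range of the Ercc1Δ/- samples. The log2 fold changes were 1.23 ± 0.27, adjusted p = 0.0197 at 6 weeks, 1.70 ± 0.26, adjusted p = 0.00016 at 22 weeks on AL and 1.85 ± 0.28, adjusted p = 7.39e-05 on DR. The call at 6 weeks was lost without mouse 002, 009 or 024 (adjusted p = 0.0774, 0.078 and 0.0667).

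Tnfrsf10b, the mouse gene for the TRAIL receptor, was the 1 member lower in Ercc1Δ/- mice. Tnfrsf10b in WT mice had normalized counts of 83.8, 57.8, 68.3, 62.8 and 69.9 at 6 weeks, 71.8, 86.1, 104 and 80.9 at 22 weeks on AL and 102, 105, 79.4, 70.7 and 72.4 on DR. Tnfrsf10b in Ercc1Δ/- mice stood at 54.6, 58.7, 45.4, 77.6 and 50.1 at 6 weeks, 60.4, 52.5, 64.2 and 62.2 at 22 weeks on AL and 44.7, 43.3, 40.8, 55.9 and 80.02 on DR. On AL at 22 weeks every Ercc1Δ/- sample lay below every WT sample, while on DR mouse 029 reached the WT range. This amounted to a log2 fold change of -0.57 ± 0.18, adjusted p = 0.0374 on AL and -0.64 ± 0.18, adjusted p = 0.0189 on DR. Without mouse 004, 005, 018, 020 or 025 the call on AL was lost (adjusted p up to 0.118), and that on DR without 006, 007 or 016 (up to 0.0689). Fas, the receptor of FAS ligand, was not called, with -0.19 ± 0.15, 0.30 ± 0.17 and -0.16 ± 0.14.

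Among the members that act in signalling, metabolism and RNA binding, 5 of 9 were called higher at 22 weeks on AL. Gdf15, a secreted factor of cell stress that reduces food intake through the brain stem, had the largest fold change at 6 weeks of the 33 tested members. Ckap2, which the filter left out, had a log2 fold change of 2.25 there in the fit without the filter. Gdf15 in WT mice had normalized counts of 4.53, 5.46, 4.02, 5.71 and 6.1 at 6 weeks, 8.73, 11.1, 7.69 and 7.6 at 22 weeks on AL and 6.68, 10.2, 7.16, 2.4 and 4.26 on DR. Gdf15 in Ercc1Δ/- mice stood at 28.3, 27.0, 14.6, 16.9 and 26.6 at 6 weeks, 27.1, 29.4, 25.1 and 32.4 at 22 weeks on AL and 7.06, 11.8, 16.8, 12.3 and 13.3 on DR. On AL the groups were separate at both ages, and on DR mouse 006 lay among the WT samples. The log2 fold change was 2.08 ± 0.28, adjusted p = 0.00032 at 6 weeks and 1.64 ± 0.27, adjusted p = 0.000226 at 22 weeks on AL. On DR it was 1.03 ± 0.38, which did not pass the test (adjusted p = 0.0738) except without WT mouse 010 (0.0474). The gene had only 1 to 30 raw counts per sample, with the lowest maximum of the tested members. It exceeded 10 counts in 11 samples, the fewest that pass the filter, and most of these were Ercc1Δ/- mice on AL. Gdf15 could thus be tested only through the groups in which it was high.

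Ddit4l, which encodes an inhibitor of mTOR signalling (REDD2), rose at 22 weeks on AL. Ddit4l in WT mice had normalized counts of 9.82, 10.9, 8.04, 17.1 and 10.98 at 6 weeks, 20.4, 10.1, 10.3 and 14.1 at 22 weeks on AL and 11.4, 11.6, 7.81, 13.2 and 15.2 on DR. Ddit4l in Ercc1Δ/- mice stood at 14.6, 17.7, 22.7, 15.8 and 7.82 at 6 weeks, 34.3, 29.4, 27.9 and 39.8 at 22 weeks on AL and 21.2, 19.7, 23.99, 10.9 and 22.9 on DR. On AL at 22 weeks the groups were separate, on DR 1 Ercc1Δ/- sample (022) lay within WT, and at 6 weeks they overlapped. On the log2 scale the difference was 1.34 ± 0.27, adjusted p = 0.00214 on AL and 0.68 ± 0.30 on DR (adjusted p = 0.141).

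Phlda3, an inhibitor of AKT signalling, was higher at 22 weeks on AL. Phlda3 in WT mice had normalized counts of 223, 259, 205, 159.8 and 248 at 6 weeks, 307, 226, 261 and 247 at 22 weeks on AL and 206, 258, 343, 229 and 192 on DR. Phlda3 in Ercc1Δ/- mice stood at 386, 266, 293, 249 and 616 at 6 weeks, 451, 432, 441 and 463 at 22 weeks on AL and 226, 327, 276, 308 and 333 on DR. The Ercc1Δ/- samples on AL at 22 weeks were separate from WT and close together, while mouse 027 was highest at 6 weeks. The fitted difference was 0.86 ± 0.21, adjusted p = 0.0115 on AL, 0.68 ± 0.19 at 6 weeks (adjusted p = 0.0913) and 0.27 ± 0.14 on DR (adjusted p = 0.221). Without WT mouse 017 it was called on DR (0.0210), and DESeq2 called it at 6 weeks (0.0206).

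Zmat3, an RNA-binding zinc finger protein that acts on splicing downstream of p53, was called on AL at 22 weeks. Zmat3 in WT mice had normalized counts of 83.8, 87.3, 64.3, 103 and 89.4 at 6 weeks, 70.8, 76.9, 94.0 and 99.1 at 22 weeks on AL and 105, 55.2, 80.1, 94.7 and 86.99 on DR. Zmat3 in Ercc1Δ/- mice stood at 117, 86.6, 71.3, 82.1 and 133 at 6 weeks, 128, 111, 151 and 144 at 22 weeks on AL and 77.7, 114, 139, 120.0 and 111 on DR. The groups were separate on AL at 22 weeks and overlapped elsewhere. Its log2 fold change was 0.69 ± 0.16, adjusted p = 0.0071 on AL and 0.40 ± 0.17 on DR (adjusted p = 0.122), where it was called without mouse 006 (0.0406).

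The sestrins restrain mTORC1 when amino acids are short. Sesn2 was called on both diets at 22 weeks. Sesn2 in WT mice had normalized counts of 43.8, 40.4, 56.2, 37.1 and 49.2 at 6 weeks, 47.5, 46.5, 53.8 and 45.95 at 22 weeks on AL and 43.4, 39.2, 46.9, 52.7 and 52.9 on DR. Sesn2 in Ercc1Δ/- mice stood at 77.04, 60.5, 55.1, 60.8 and 76.7 at 6 weeks, 82.1, 91.4, 69.8 and 74.7 at 22 weeks on AL and 82.4, 62.97, 69.6, 84.6 and 105 on DR. All Ercc1Δ/- samples at 22 weeks lay above the WT samples on the same diet. Its log2 fold changes were 0.73 ± 0.16, adjusted p = 0.00424 on AL and 0.81 ± 0.15, adjusted p = 0.000749 on DR, after 0.56 ± 0.15, adjusted p = 0.0576 at 6 weeks, where DESeq2 and the fit of all 6 groups called it (adjusted p = 0.0451 and 0.0423).

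Sesn1 was called on DR alone. Sesn1 in WT mice had normalized counts of 352, 276, 321, 385 and 306 at 6 weeks, 283, 330.2, 293 and 263 at 22 weeks on AL and 310.1, 357, 289.7, 329.7 and 324 on DR. Sesn1 in Ercc1Δ/- mice stood at 329, 382, 301, 349 and 244 at 6 weeks, 315, 358, 360.0 and 348 at 22 weeks on AL and 617, 366, 599.7, 337 and 427 on DR. On DR all Ercc1Δ/- samples but that of mouse 022 lay above the WT samples, and on AL the groups overlapped. The change on the log2 scale was 0.53 ± 0.12, adjusted p = 0.00496 on DR and 0.21 ± 0.12, adjusted p = 0.296 on AL.

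Epha2, an ephrin receptor kinase, was also called on DR. Epha2 in WT mice had normalized counts of 20.4, 24.01, 20.1, 11.4 and 33.7 at 6 weeks, 26.2, 21.2, 42.7 and 16.7 at 22 weeks on AL and 24.1, 21.8, 28.6, 22.8 and 20.7 on DR. Epha2 in Ercc1Δ/- mice stood at 36.1, 27.0, 8.1, 24.8 and 12.5 at 6 weeks, 31.6, 48.3, 36.3 and 32.4 at 22 weeks on AL and 25.9, 43.3, 31.2, 61.4 and 49.5 on DR. The groups overlapped in each comparison. This amounted to a log2 fold change of 0.88 ± 0.27, adjusted p = 0.031 on DR and 0.49 ± 0.35 on AL (adjusted p = 0.399). Without mouse 022 the adjusted p on DR was 0.172, and without 021, 028 or 029 it was 0.0506, 0.0671 and 0.0915. Tigar, a regulator of glycolysis, and Abhd4, a lipid hydrolase, were not called. Abhd4 came close at 22 weeks on AL (0.36 ± 0.12, adjusted p = 0.0514) and was called there in 4 alternative fits, with DESeq2, without the sex term, with all 6 groups and with the earlier dispersions of edgeR.

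Of the genes for nucleotide supply and lesion bypass, Rrm2b, the p53-inducible subunit of ribonucleotide reductase, had log2 fold changes of 0.03 ± 0.16, -0.12 ± 0.17 and -0.27 ± 0.14, and Polk, a translesion polymerase, 0.19 ± 0.16, 0.34 ± 0.17 and -0.01 ± 0.18. Neither was called.

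The 4 members under the filter had at most 33 counts in any sample. Gtse1, which encodes a protein that holds p53 in the cytoplasm in G2 phase, had 4.85, 2.3, 4.27 and 6.46 normalized counts in WT and 29.8, 27.3, 27.9 and 17.4 in Ercc1Δ/- mice at 22 weeks on AL. These did not overlap. Ckap2, a spindle protein, had 3.02, 4.36, 8.04, 2.85 and 5.28 in WT and 18.5, 16.8, 16.2, 18.0 and 46.9 in Ercc1Δ/- mice at 6 weeks, and Pmaip1, the apoptosis gene NOXA, 3.34, 0, 5.21, 4.8 and 3.04 in WT and 23.5, 7.87, 55.2, 8.18 and 9.53 in Ercc1Δ/- mice on DR. In the other groups, WT and Ercc1Δ/- mice had 0 to 12.1 and 6.48 to 17.6 of Gtse1 at 6 weeks and 0 to 6.08 and 9.6 to 21.2 on DR. Ckap2 overlapped at 22 weeks, with 1.52 to 6.45 and 5.58 to 20.7 on AL and 1.2 to 5.21 and 1.91 to 23.2 on DR. Pmaip1 had 4.02 to 6.04 and 6.26 to 17.7 at 6 weeks and overlapped on AL at 22 weeks (2.91 to 15.4 and 9.95 to 23.1). When no filter was applied, Gtse1 was called higher at 22 weeks on AL and DR (adjusted p = 1.05e-05 and 0.000244), Ckap2 at 6 weeks and at 22 weeks on AL (0.000381 and 0.0168) and Pmaip1 on DR (0.0151). Pidd1, a death domain protein that binds caspase 2, had 2.85 to 16.1 in WT and 7.88 to 19.7 in Ercc1Δ/- mice.

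The comparison of ages asks how the genes differ between 6 and 22 weeks within a genotype. In WT mice on AL no member was called, while 0.235% of all genes were called. An unadjusted p under 0.05 was found for 4 of the members and 8.64% of all genes. DESeq2 called 1 member there, Btg2, as lower. In Ercc1Δ/- mice 4 of 33 members rose with age and none fell, against 2.11% and 2.57% of all genes. They were Cdkn1a (0.80 ± 0.13, adjusted p = 0.000611), Psrc1 (1.08 ± 0.20, adjusted p = 0.00149), Aen (0.67 ± 0.16, adjusted p = 0.0163) and Ddit4l (1.06 ± 0.27, adjusted p = 0.0227). For all 4 the samples of 22 weeks lay above those of 6 weeks. The same genes in WT differed by -0.03 ± 0.14, 0.33 ± 0.25, 0.26 ± 0.16 and 0.25 ± 0.28. The count was 6 without mouse 027, when Phlda3 and Zmat3 were called too, and Plk3 was called without mouse 002 (adjusted p = 0.0162). Without mouse 004 it fell to 2, since Aen (adjusted p = 0.0597) and Ddit4l (0.104) were lost. Aen was also lost without 013 and Ddit4l without 002, 005 or 026. The age change differed between the genotypes for Cdkn1a alone, by 0.83 ± 0.20, adjusted p = 0.0453, when 0.842% of all genes passed this interaction test. It held only without mouse 002, 011, 019, 020, 026 or 027 and was lost in the other 12 omissions of a single mouse (adjusted p up to 0.159). Gadd45a had a larger difference with a larger error (1.36 ± 0.40, adjusted p = 0.132). In 28 of the 33 members, and in 51.4% of all genes, the age change was more positive in Ercc1Δ/- than in WT mice.

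The comparison of diets asks what DR changed at 22 weeks. In WT mice no member was called, against 1.28% of all genes, and 4 members and 12.8% of all genes had an unadjusted p under 0.05. In Ercc1Δ/- mice no member was higher and 2 were lower on DR, Psrc1 and Phlda3, against 0.648% and 0.988% of all genes, and 10 members and 15.0% of all genes had an unadjusted p under 0.05. Psrc1 fell by 0.99 on the log2 scale (SE 0.26, adjusted p = 0.0469), and its 5 samples on DR lay below all 4 on AL. In WT mice Psrc1 differed by -1.02 ± 0.31, adjusted p = 0.114, again with no overlap. Phlda3 fell by 0.58 (SE 0.14, adjusted p = 0.0389), from 451, 432, 441 and 463 on AL to 226, 327, 276, 308 and 333 on DR, and differed by -0.11 ± 0.14 in WT. The count was 0 without mouse 004, 005, 013, 016 or 026, 1 without 006, 014 or 029, and 3 without 022, when Psrc1, Aen (lower) and Sesn1 (higher) were called. Without 006 the 1 member called was Abhd4. Phlda3 kept its call only without 029 (adjusted p otherwise up to 0.115), and Psrc1 only without 014 or 022 (otherwise up to 0.114). Gdf15 differed by more (-1.17 ± 0.33, adjusted p = 0.0672), with no overlap between 27.1, 29.4, 25.1 and 32.4 on AL and 7.06, 11.8, 16.8, 12.3 and 13.3 on DR, and Ddit4l and Gadd45a differed by -0.90 ± 0.29 and -0.83 ± 0.27. None of these 3 passed the threshold, though Gdf15 was called lower with all 6 groups in the fit (adjusted p = 0.0420). Trp53inp1 differed by 1.06 ± 0.35, adjusted p = 0.149, which did not pass the threshold, and DESeq2 called it higher (adjusted p = 0.0453). Cdkn1a differed by 0.10 ± 0.16 between the diets in Ercc1Δ/- mice (adjusted p = 0.843, 95% interval -0.24 to 0.43), and the samples overlapped. The interaction of genotype and diet was called for no member and for 0.0971% of all genes, with 4 members and 8.72% of all genes at an unadjusted p under 0.05.

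**Figure D3:**
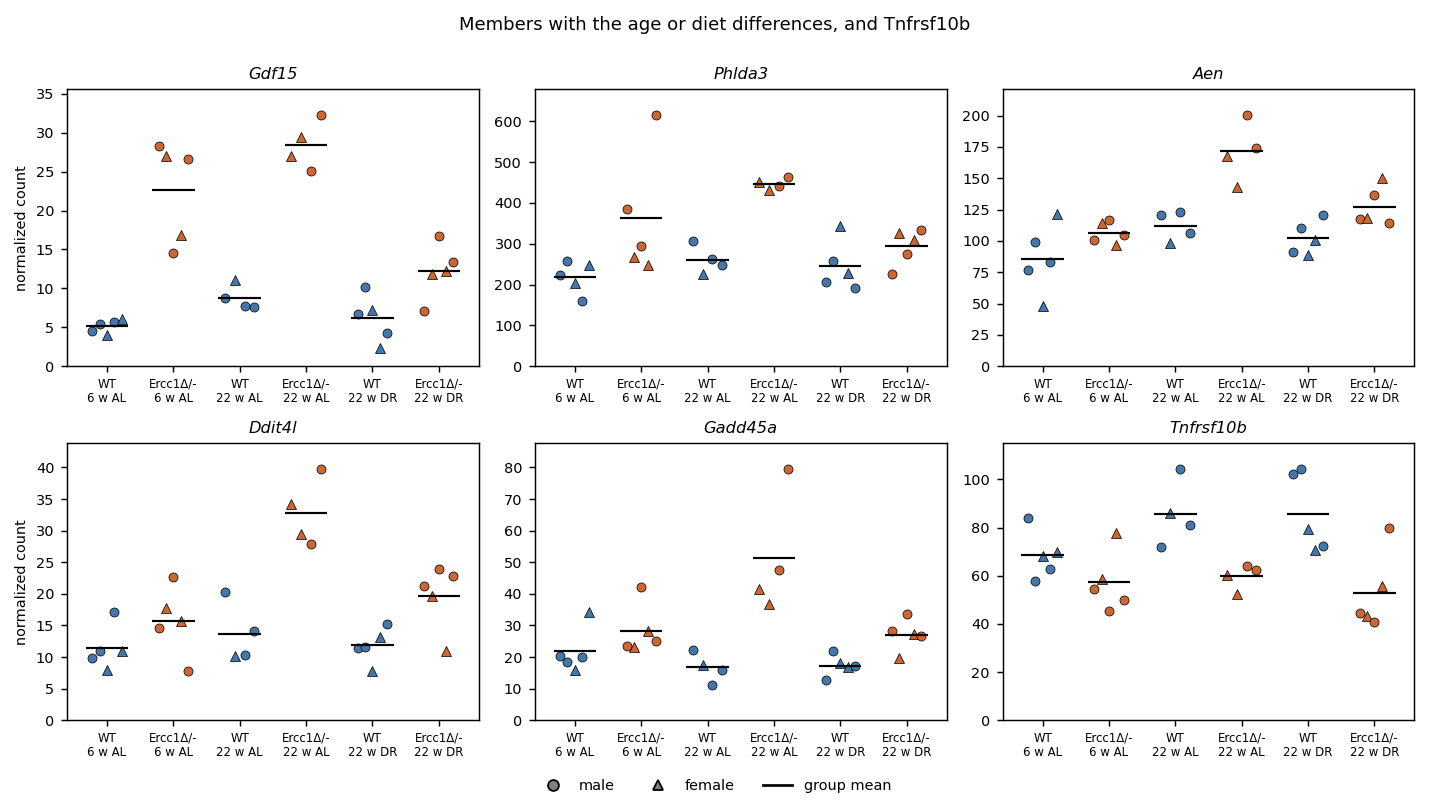
Normalized counts in each mouse of Gdf15, Phlda3, Aen, Ddit4l, Gadd45a and Tnfrsf10b by group (circles male, triangles female, lines group means). In Ercc1Δ/- mice at 22 weeks the DR samples of Gdf15 (7.06 to 16.8) lay below those on AL (25.1 to 32.4).

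In the Ercc1Δ/- mice on DR, several members were ordered by sex. The 3 males (006, 016 and 029) and 2 females (014 and 022) had 960.1, 1063 and 678 against 350.3 and 352 normalized counts of Trp53inp1. For Sesn1 the males had 617, 599.7 and 427 and the females 366 and 337. For Plk3 the males had 84.7, 93.6 and 93.4 and the females 43.3 and 53.2. In each of these genes the males lay above the females, and for Psrc1 they lay below. Among all tested members the 3 males lay above both females in 10, below in 2 and overlapped with them in 21. Over all genes tested, males lay above in 11.4% and below in 10.2%. A pair of glucocorticoid-induced genes, named after their values were seen, followed the same order. Fkbp5, a cochaperone of the glucocorticoid receptor, had 1461, 1694 and 1303 in the males and 807 and 831 in the females. Tsc22d3, which encodes GILZ, had 1005, 1168 and 827 and 571 and 565. Among other glucocorticoid and fasting genes, Ddit4 and the metallothionein gene Mt1 followed this order too. For Mt2 the sexes overlapped, with 969, 950 and 648 in the males and 661 and 375 in the females. The order was not counted over all genes of this class. In WT mice on DR the sexes overlapped for Trp53inp1, Sesn1, Plk3 and Fkbp5, while for Tsc22d3 the males lay below the females. Trp53inp1 stood there at 216, 176 and 278 in males and 186 and 299.7 in females. In Ercc1Δ/- mice of 22 weeks on AL the order was not the same. The 2 males (013 and 026) lay below the 2 females (004 and 005) for Trp53inp1, with 268 and 271 against 281 and 391. For Plk3 they also lay below, with 33.5 and 57.2 against 69.4 and 101. For Sesn1 the sexes overlapped there, and for Psrc1 the males lay above. The libraries of these males held 1294980 and 1433979 counts and those of the females 3855444 and 3351172. Sex and depth cannot be told apart in this group. The sexes were not tested against each other within these groups, and the part of sex or of glucocorticoid signalling in these genes was not tested. Among males alone, 3 of each genotype on DR, the genotype difference was 1.98 for Trp53inp1 (adjusted p = 0.00313), 0.72 for Sesn1 (0.00103) and 1.46 for Plk3 (0.000346). These genes are named here for their high values in the same males. The sizes and p-values are therefore not independent of that choice and are no added support.

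**Figure D4:**
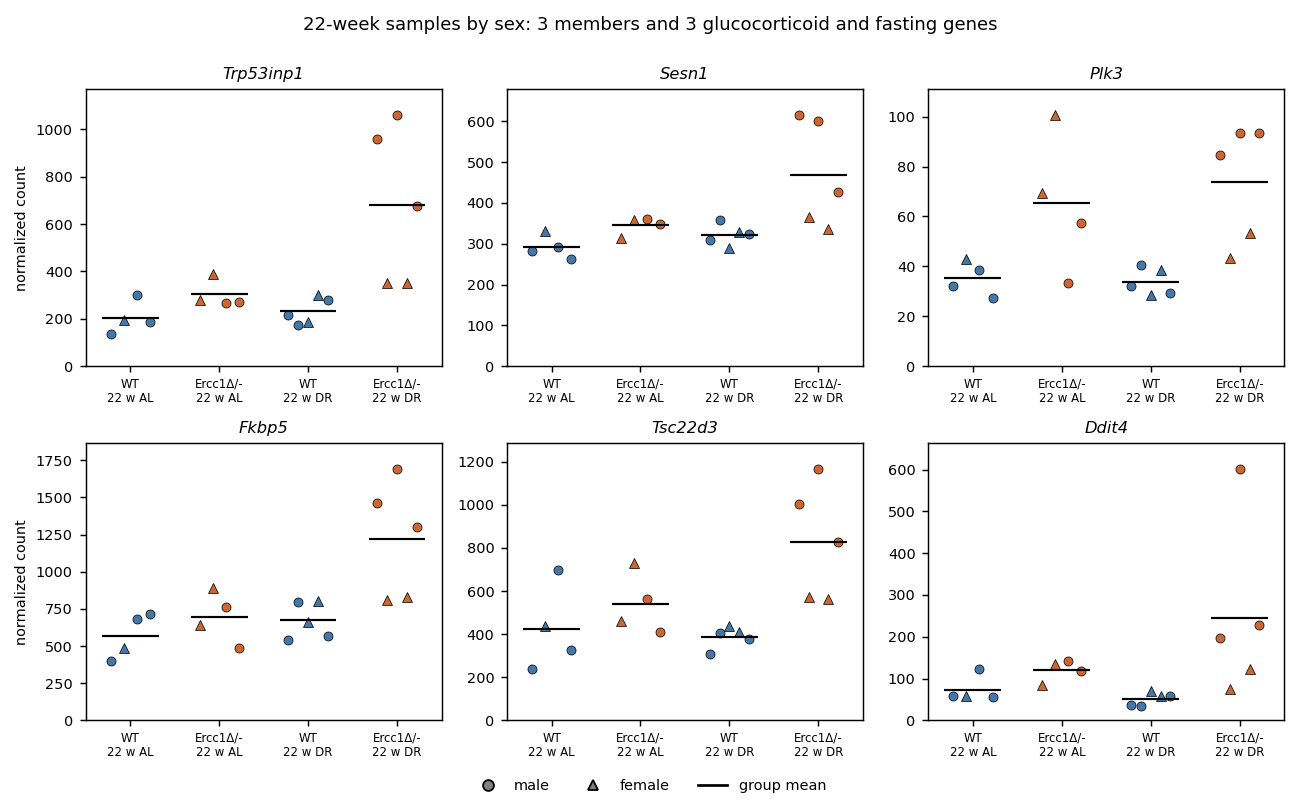
Normalized counts at 22 weeks of Trp53inp1, Sesn1 and Plk3 and of the glucocorticoid and fasting genes Fkbp5, Tsc22d3 and Ddit4 in each mouse (circles male, triangles female, lines group means). In the Ercc1Δ/- group on DR the 3 males lie above the 2 females in all 6 panels. On AL the Ercc1Δ/- males lie below the females for Trp53inp1 and Plk3.

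Genes outside the list place these results in the wider pathway. Of 39 tested targets of p53 that are not on the list, none was called at 6 weeks (14 with an unadjusted p under 0.05), 4 were higher at 22 weeks on AL and 1 was higher and 2 lower on DR, beside the shares of all genes given above. The 4 were Fuca1, a lysosomal fucosidase (0.72 ± 0.11, adjusted p = 0.000117), Shisa5 (0.49 ± 0.10), a proapoptotic protein of the endoplasmic reticulum, Dglucy (0.77 ± 0.24) and the tetraspanin gene Cd82 (0.60 ± 0.19). The median log2 fold change of the 39 genes at 22 weeks on AL was 0.13, against 0.47 for the list. Both sets were chosen with earlier results of these data known, so the contrast between them can come from that choice. Of 22 tested modifiers and cofactors of p53, none was called at 6 weeks (0 with an unadjusted p under 0.05), Chek2 was higher (0.86 ± 0.25, adjusted p = 0.0256) and Ep300 lower (-0.48 ± 0.13, adjusted p = 0.0162) at 22 weeks on AL, and Rfwd3 was higher on DR (0.40 ± 0.13, adjusted p = 0.0485). Chek2 is a checkpoint kinase and Ep300 an acetyltransferase that both modify p53.

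Of the cell division genes that p53 is known to repress through p21 and the DREAM complex, none was called lower in Ercc1Δ/- mice. Summed over the 27 genes, WT samples held only 156 to 304 normalized counts. A fall from such levels could hardly have been called, so that the absence of lower calls decides nothing. Only 10 of 27 had enough counts, and a gene could pass the filter through Ercc1Δ/- samples alone. Of these, 4 were higher at 6 weeks, 3 at 22 weeks on AL and 4 on DR, with none lower. Of all genes 0.567%, 5.88% and 5.97% were higher. Top2a, the DNA topoisomerase of dividing cells, was higher in all 3 comparisons (1.78 ± 0.36, adjusted p = 0.0109, then 1.71 ± 0.40, adjusted p = 0.00633 and 2.29 ± 0.49, adjusted p = 0.00226). Its counts at 6 weeks were 9.82, 14.2, 4.02, 11.4 and 7.32 in WT and 29.3, 26.1, 27.5, 16.9 and 71.97 in Ercc1Δ/- mice, which did not overlap. Mki67, the proliferation marker, was higher at 6 weeks (2.34 ± 0.48) and on DR (2.47 ± 0.59).

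Several members also belong to other stress programmes. Gdf15, Sesn2 and Tnfrsf10b are on the list of the integrated stress response, which runs through the transcription factor ATF4, and Plk2, Plk3 and Btg2 on that of immediate early genes. Of the 15 tested ATF4 genes 1 was higher at 6 weeks (Gdf15), 7 were higher and 1 lower at 22 weeks on AL, and 4 higher and 1 lower on DR. Beside the members these included Trib3, a pseudokinase (1.44 ± 0.27, adjusted p = 0.000924 on AL), Psat1, an enzyme of serine synthesis (1.11 ± 0.25, adjusted p = 0.00531), and Slc3a2, an amino acid transporter subunit (0.54 ± 0.13 on AL and 0.33 ± 0.11 on DR). Of 12 glucocorticoid and fasting genes, which include Cdkn1a, 1 was higher at 6 weeks, 3 at 22 weeks on AL and 7 on DR. Cdkn1a was the 1 gene at 6 weeks and was among those called at 22 weeks on each diet. Of all genes 0.567%, 5.88% and 5.97% were higher in these 3 comparisons and 1.13%, 6.16% and 7.03% lower. The metallothionein genes Mt1 and Mt2 were higher on AL (1.25 ± 0.19 and 1.82 ± 0.25) and on DR (1.04 ± 0.17 and 1.70 ± 0.22). The part of these programmes in the members was not tested.

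**Figure D5:**
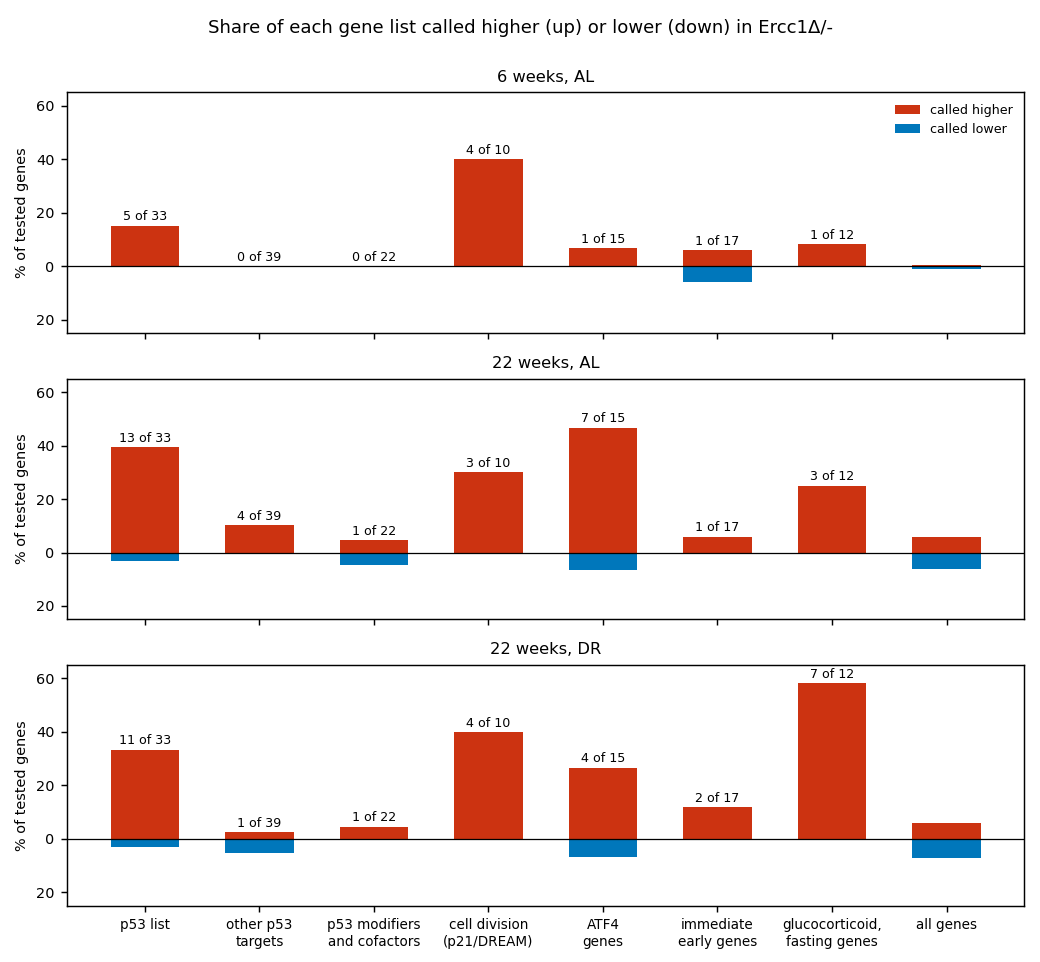
Share of the tested genes of each list called higher (upward bars) or lower (downward bars) in Ercc1Δ/- mice in the 3 genotype comparisons, beside that of all 12353 genes. The p53 list reaches 13 of 33 higher at 22 weeks on AL, the other p53 targets 4 of 39. The lists were chosen with earlier results of these data known.

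Cell type markers moved with genotype as well. Summed macrophage markers ran from 773 to 929 in WT and 958 to 2447 in Ercc1Δ/- mice at 6 weeks, from 981 to 1470 and 2255 to 4157 at 22 weeks on AL, and from 613 to 1136 and 1465 to 4707 on DR. Of the 9 tested macrophage genes 8 were called higher at 22 weeks on AL (5.88% of all genes) and 5 fell on DR in Ercc1Δ/- mice (0.988%). Summed smooth muscle markers ran from 127839 to 151029 in WT and from 66851 to 102647 in Ercc1Δ/- mice at 22 weeks on AL. Of these markers 8 of 10 were called lower, against 6.16% of all genes. On DR the sums ran from 130853 to 169057 in WT and from 93635 to 102106 in Ercc1Δ/- mice. There 9 of 10 smooth muscle markers were lower (7.03% of all genes), and at 6 weeks 3 of 10 (1.13%). Endothelial markers were called in 5 of 10 on DR, all higher, against 5.97% of all genes. Lymphocyte markers summed to at most 55 normalized counts in any sample. In whole tissue, fewer cells of a type and less RNA per cell cannot be told apart, and the part of cell composition in the members was not tested.

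Across the 28 samples, centred within groups, Cdkn1a moved with 1 of 32 other tested members. Plk2 correlated with it at Pearson's r = 0.67 and Spearman's rho = 0.68 (permutations within groups, adjusted p = 0.0218 and 0.0198 over 32 relations), and r was 0.59 without the 2 samples farthest from the median of Cdkn1a. It was 0.88 in the 14 WT and 0.24 in the 14 Ercc1Δ/- samples. The other 31 members had r from -0.29 to 0.47, with a median over all 32 of 0.05. Eda2r and Psrc1, which were called beside Cdkn1a in every genotype comparison, did not pass this test.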

How the data were processed

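RNA of the aortic arch was sequenced in 29 mice. Per the labels and the methods of the study, the authors demultiplexed with bcl2fastq 2.20, trimmed with fastp, aligned to GRCm39 with STAR 2.7.10a, deduplicated by unique molecular identifiers with UMI-tools 1.1.2 and counted over whole gene bodies with htseq-count 2.0.2, and deposited raw counts per gene. Counts can therefore include intronic reads, so levels are not compared between genes. The library was stranded, and the strand setting of the counting is not given in the sources used here, so reads of overlapping antisense genes cannot be told apart. The 5 summary lines without a gene were left out, of which reads in no gene came to 7.27% to 10.1%, ambiguous reads to 1.4% to 1.82% and multiply aligned reads to 3.66% to 7.06% per sample.

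Tests were run on the 12353 genes that exceeded 10 counts in over 10 samples. edgeR 4.0.16 (R 4.3.3, limma 3.58.1) was used with TMM scaling, robust quasi-likelihood F tests and a model of group and sex. The 18 samples on AL were fitted for age and for genotype on AL, and the 18 samples of 22 weeks for diet and for genotype on DR. Adjusted p-values are by Benjamini-Hochberg over all genes tested. Interactions were called on the adjusted p alone. To obtain normalized counts, each count was divided by the TMM-adjusted library total and multiplied by 3683502. Correlations used log2 CPM with a prior count of 2, centred within groups, and 100000 permutations within groups. The fit was tested on simulated data with 200 genes changed 2-fold. It recovered 68.5% of them for genotype at 22 weeks on AL, 77.5% on DR and 73% for diet in Ercc1Δ/- mice. A gene that was not called can therefore still differ.

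All 37 listed genes are named. Values in every sample are given for those called in any comparison, and some of the genes called in the other lists are named. The members and lists were chosen with earlier results of these data known. Each sample is a separate mouse. Alternatives were DESeq2 1.42.0, RLE size factors, no count filter, sample 003 added, no sex term, other sample sets, males only, thinning to 921167 counts per sample, a test against the 1.2-fold change and each mouse left out. The earlier dispersions of edgeR were added after seeing the data. Promoters are RefSeq windows of a GRCm38.p6 table placed in GRCm39 by exact match, and both strands were covered because the half-site consensus is its own reverse complement.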

Additional observations from a re-analysis of the deposited data

Results flagged for a closer look

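Of 198 groups of samples of single members, 8 (4.04%) had 1 mouse far from the others, where chance gives about 1 in 20. In Ercc1Δ/- mice on DR, Mdm2 was 316 normalized counts in mouse 029 against 261 to 276 in the others, and Btg2 was 717 in mouse 016 against 237 to 365. Gadd45a was 34.1 in WT mouse 024 of 6 weeks (others 16.1 to 20.4) and 42.1 in Ercc1Δ/- mouse 015 of 6 weeks (others 23.3 to 28.1). Plk3 was 68.3 in Ercc1Δ/- mouse 002 of 6 weeks (others 25.03 to 31.7), and Trp53inp1 was 391 in Ercc1Δ/- mouse 005 of 22 weeks on AL (others 268 to 281). Fas was 151 in Ercc1Δ/- mouse 008 of 6 weeks, below the others (191 to 200.3), and 283 in WT mouse 012 of 22 weeks on AL (others 183 to 199).

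The age change of Cdkn1a differed between the genotypes, by 0.83 on the log2 scale in the interaction test of edgeR. This call was fragile. It was lost in 12 of 18 omissions of a single mouse (adjusted p up to 0.159) and in 4 of 9 alternative fits.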

How the results depend on the processing

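No log2 fold change of a called member reversed its sign in any alternative that was run, and DESeq2 and RLE size factors kept all 38 calls of single members. Fewer members were called in males alone, with 3 at 6 weeks, 6 at 22 weeks on AL, 1 for age in Ercc1Δ/- mice, 0 for diet in Ercc1Δ/- mice and 0 for genotype by age. After thinning to the lowest total the counts were 2, 6, 1, 0 and 0. The test against the 1.2-fold change called 7 for genotype on DR, 2 for age and 0 for diet in Ercc1Δ/- mice. DESeq2 called 8 at 6 weeks, 1 for age in WT and 4 for diet in Ercc1Δ/- mice (1 higher, Trp53inp1, and 3 lower). With sample 003 added the counts for diet in Ercc1Δ/- mice and for genotype by age were 0 and 0, with only the compared groups in the fit 1 for diet, with the earlier dispersions 1 for diet, and with all 6 groups 0 for genotype by age. With single mice left out the counts were 4 to 5 at 6 weeks, 10 to 15 at 22 weeks on AL, 9 to 12 on DR, 2 to 6 for age and 0 to 3 for diet in Ercc1Δ/- mice, 0 to 0 for age and diet in WT mice and for genotype by diet, and 0 to 1 for genotype by age. Males alone and thinning hold fewer samples or counts by construction, and the cause of the other changes was not tested.

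Counts over all genes moved by more than 1.5 times as well. At 6 weeks 210 genes were called, and 378 with DESeq2, 121 with only the compared groups, 61 in males and 29 in the 1.2-fold test. At 22 weeks on AL 1487 were called, and 361 in males, 775 after thinning and 697 in the 1.2-fold test. On DR 1605 were called, and 998 after thinning and 602 in the 1.2-fold test. For age in Ercc1Δ/- mice 579 were called, and 128, 345 and 240 in these 3 settings. For diet in Ercc1Δ/- mice 202 were called, and 348 with DESeq2, 101 with sample 003, 90 with only the compared groups, 86 in males and 20 in the 1.2-fold test. For genotype by age 104 passed, and 197 with DESeq2, 50 after thinning and 4 in males. In WT mice 29 genes were called for age (3 to 106 over these settings) and 158 for diet (17 to 307), and 12 passed for genotype by diet (1 to 43).

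No paired analysis was possible because each mouse gave 1 sample and no replicate number occurs in more than 1 group. The Ercc1Δ/- libraries of 22 weeks were shallower than those of WT, and after thinning all samples to 921167 counts 8 members were called for genotype on DR, against 12.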
